A study of Homo sapiens with 10 samples.

Results

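Receptors that signal through heterotrimeric G proteins depend on 3 sets of proteins inside the cell, which are the G protein subunits, the regulators of G protein signaling (RGS) and the phospholipases C (PLC). Their genes were taken from the count table by symbol, as all protein-coding genes named as Gα, Gβ or Gγ subunits, as numbered RGS genes or as PLC isozymes and PLC-like genes. This gave 67 of the 60448 genes listed, with 16 Gα, 5 Gβ, 10 Gγ, 21 RGS and 15 PLC genes. The rule uses the symbols and no measured value. Enough reads for a test were present for 47 of the 67, and 20 were too low, 4 of them with 0 counts in every library.

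The study sequenced mRNA of untreated cells of 2 immortalized human endothelial lines, with 5 libraries each. EA.hy926 is a hybrid made by fusing umbilical vein endothelial cells with A549, a lung adenocarcinoma line of epithelial origin, and it was grown in Advanced DMEM with fetal bovine serum. HMEC-1 comes from dermal microvascular endothelial cells that carry the SV40 large T antigen. It was grown in MCDB 131 with epidermal growth factor, hydrocortisone and a higher percentage of fetal bovine serum than EA.hy926. Each group is a single immortalized line rather than several donors. Because each had its own medium and serum percentage, an effect of the line and an effect of the medium or serum cannot be told apart. The data are raw read counts per gene, with totals of 34846046 to 39899324 reads in EA.hy926 against 33391640 to 43877224 in HMEC-1. Log2 CPM correlated at 0.9949 to 0.9959 between libraries of a line and at 0.8031 to 0.8067 between the lines (Pearson's r across genes, which are not independent replicates). In bulk RNA, fewer cells of a type and less RNA per cell cannot be told apart.

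In the resting state a Gα subunit binds GDP and is held by a Gβγ pair. An activated receptor exchanges the GDP for GTP, and the separated Gα and Gβγ then act on effectors. Gs and Gi raise and lower cyclic AMP through the adenylyl cyclases, and Gq activates PLCβ. PLC cleaves the membrane lipid PIP2 into inositol trisphosphate (IP3), which opens Ca2+ channels of the endoplasmic reticulum, and diacylglycerol, which recruits protein kinase C. RGS proteins speed the hydrolysis of GTP by Gα and so end the signal. The study stimulated both lines with agonists of Gq-coupled receptors and followed intracellular Ca2+, so the question for these genes is which subunits, regulators and phospholipases each line transcribes, and how far the lines differ.

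The widest differences between the lines lay in RGS and PLC genes. RGS5 was higher in EA.hy926 by 85.2-fold, PLCB1 by 88.5-fold and PLCB4 by 12.5-fold, whereas RGS9 was close to absent from EA.hy926 and present in all HMEC-1 libraries. The abundant subunits were shared by both lines, and most of them were moderately lower in EA.hy926. Of the 47 members tested, 23 passed both thresholds, which were an adjusted p under 0.05 in edgeR's quasi-likelihood test and an absolute log2 fold change (log2FC, EA.hy926 against HMEC-1) over 1. Of these, 14 were higher and 9 lower in EA.hy926. Over all 16310 genes tested, 35.5% passed both, with 19.1% higher and 16.4% lower, against 48.9% of these 47, and among protein-coding genes the share was 32.9%. The median log2FC of the 47 was -0.18 and the median of its absolute value 0.99, against -0.01 and 0.65 over all genes. GNA14, GNG4, GNG7, RGS9, RGS11 and RGS17 reached the test through their HMEC-1 reads, and GNA15 and GNAL through their EA.hy926 reads. The direction of these members is therefore partly set by the filter. With at least 10 counts in every library, 15 of 39 members passed both thresholds, 12 higher and 3 lower, against 3255 of 13107 genes.

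With the adjusted p alone, 46 of the 47 members passed, 19 higher and 27 lower in EA.hy926, in a table where 85.8% of all genes did (42.6% higher, 43.3% lower). The normalized values of the lines did not overlap for 45 of the 47, against 77.4% of all genes. The classes went different ways. All 22 G protein subunits tested had an adjusted p under 0.05, 5 higher and 17 lower in EA.hy926. Their median log2FC was -0.44, and 7 of them also passed the fold threshold. Of 13 RGS genes, 12 passed on the adjusted p (7 higher, 5 lower, median log2FC of the 13 of 0.68) and 9 passed both thresholds. All 12 PLC genes passed on the adjusted p (7 higher, 5 lower, median 0.95) and 7 passed both. With library totals in place of the TMM factors (trimmed mean of M values), the median over all genes moved by -0.13, and GNA13 turned from 0.12 to -0.02 with an adjusted p of 0.557 in edgeR's test.

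**Figure D1:**
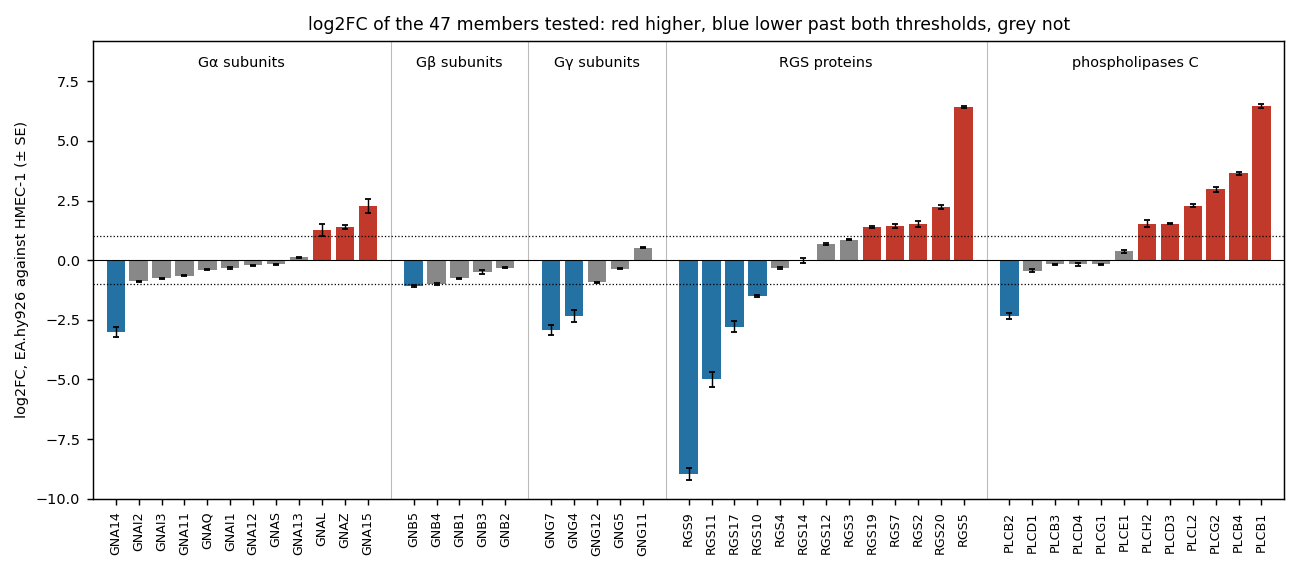
Log2FC of EA.hy926 against HMEC-1 for the 47 members tested, by class, with standard errors as whiskers and dotted lines at the fold threshold of 1. Bars of RGS5 and PLCB1 reach 6.41 and 6.47 above 0 and that of RGS9 reaches -8.97, while no Gβ bar lies above 0. The RGS9 bar stands on 2 reads in EA.hy926, so its place depends on the prior count and its whisker does not show that.

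Summed over a class, CPM of the Gα genes (read counts scaled to the size of the library, with TMM factors) were 1872 ± 48.4 in EA.hy926 against 2523 ± 20 in HMEC-1 (mean ± SD, n = 5 in each line here and below). The Gβ genes summed to 739 ± 9.36 and 1187 ± 10.3 CPM, and the Gγ genes to 556 ± 13.3 and 796 ± 14.8 CPM. The order was opposite for the others, with 1167 ± 22.7 against 798 ± 37.7 CPM for RGS and 773 ± 17 against 418 ± 6.26 CPM for PLC. In each of the 5 classes the CPM sums of the lines did not overlap. In TPM (explained below), which divides by transcript length and leaves out the TMM factors, the RGS sums were 765 ± 12.3 in EA.hy926 against 793 ± 28.4 in HMEC-1. The TPM sums of RGS overlapped between libraries of the lines, so the RGS order depends on how the counts are scaled. These sums are a description, since a few long or abundant genes carry each of them.

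**Figure D2:**
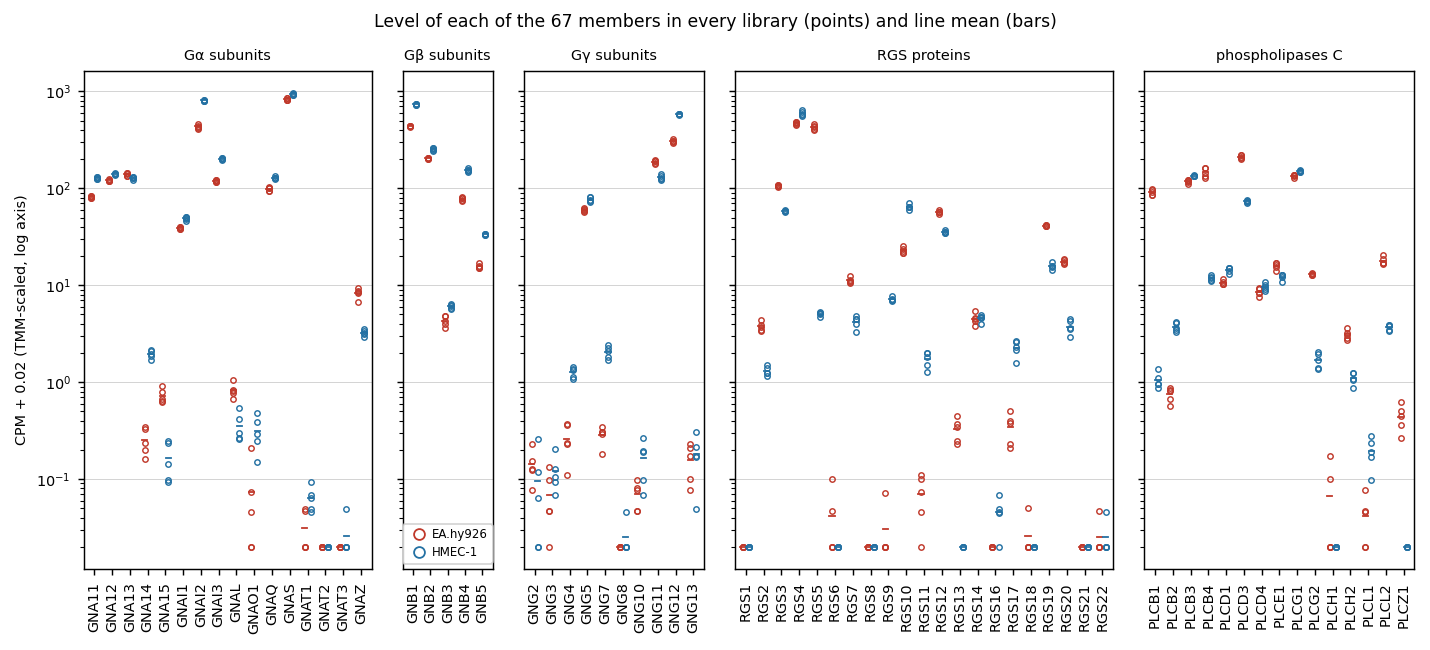
TMM-scaled CPM plus 0.02, on a log axis, of each of the 67 members in every library (open points) with the mean of each line (bars), by class. GNAS, GNAI2, GNB1 and RGS4 stand high in both lines, whereas RGS5 stands at 430 in EA.hy926 against 5.05 in HMEC-1.

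Among the Gα genes, that of Gαs had the most reads in both lines. GNAS (ENSG00000087460, chr20:58839718-58911192, GRCh38) encodes Gαs, which stimulates adenylyl cyclase, and had 31290, 28483, 28534, 31082 and 30083 counts in EA.hy926 against 32173, 39060, 42482, 38176 and 35836 in HMEC-1. All HMEC-1 libraries were above all EA.hy926 libraries, but the distance was small. After scaling the levels were 827 ± 23.3 and 934 ± 15.8 CPM, with a log2FC of -0.17 (SE 0.024, adjusted p = 9.0e-07, edgeR). GNAL, the olfactory relative of GNAS, had 24 to 40 counts in EA.hy926 against 9 to 21 in HMEC-1, a log2FC of 1.27 (SE 0.24, adjusted p = 5.9e-05, edgeR), and shares 29.1% of its exonic bases with overlapping genes, so that part of its reads cannot be assigned with certainty.

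The Gi family was lower in EA.hy926 except for Gz. GNAI2 (chr3:50226292-50259362), the main Gαi gene in these cells, had 436 ± 20.5 CPM in EA.hy926 and, in HMEC-1, 807 ± 8.89 CPM (log2FC -0.89, SE 0.028, adjusted p = 1.6e-17, edgeR). The log2FC was -0.76 for GNAI3 and -0.33 for GNAI1, which encode the other inhibitory isoforms. GNAZ (chr22:23070519-23125032) encodes Gαz, a Gi relative that hydrolyses GTP slowly by itself. Its counts were 248, 291, 328, 318 and 315 in EA.hy926 against 124, 136, 133, 130 and 118 in HMEC-1. No EA.hy926 library came near an HMEC-1 library, and the log2FC was 1.38 (SE 0.092, adjusted p = 7.8e-12, edgeR). GNAO1 had 0 to 7 and 5 to 21 counts and was not tested, and the transducin and gustducin genes GNAT1, GNAT2 and GNAT3 had 3 counts or fewer in every library.

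All 4 genes of the Gq family, whose products activate PLCβ, were tested. The widely expressed GNAQ and GNA11 were both lower in EA.hy926. GNAQ (chr9:77716097-78031811) had 98.3 ± 4.49 CPM in EA.hy926 and, in HMEC-1, 129 ± 3.76 CPM (log2FC -0.39, SE 0.032, adjusted p = 2.2e-10, edgeR), and GNA11 (chr19:3094362-3123999) had 81.3 ± 1.69 and 128 ± 3.03 CPM (log2FC -0.65, SE 0.026, adjusted p = 1.1e-15, edgeR). The tissue-restricted relatives were present at traces and moved in opposite directions. GNA14 had 5 to 12 counts in EA.hy926 against 59 to 90 in HMEC-1 (log2FC -3.02, SE 0.20, adjusted p = 9.0e-12, edgeR), and GNA15, the promiscuous subunit of blood cells, had 20 to 33 and 3 to 10 (log2FC 2.27, SE 0.30, adjusted p = 3.9e-07, edgeR). GNA14 lies 67.8 kb from GNAQ on chromosome 9 and GNA15 lies 12 kb from GNA11 on chromosome 19, so in each of these neighbouring pairs the line difference of the abundant gene was smaller than that of its rare neighbour. The G12 family differed least, with log2FC of -0.21 for GNA12 and 0.12 for GNA13.

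To compare levels between genes, counts were divided by the length of the MANE transcript (the single reference transcript per gene). They were then scaled within each library without the TMM factors (TPM). GNAS then held 59.8 ± 0.492% of the Gα sum in EA.hy926 against 50.5 ± 0.342% in HMEC-1, and GNAI2 held 26.3 ± 0.59% and 36.4 ± 0.248%. The Gi family as a whole held 28.9 ± 0.551% in EA.hy926 against 39.3 ± 0.203% in HMEC-1, while the Gq family held 4.57 ± 0.0825% and 5.01 ± 0.0879% (15% and 15.3% with the length of all annotated exons). The order of GNAS and GNAI2 rests on the length, because GNAS has long alternative exons. With the length of all annotated exons GNAS held 20.4% and 16.2% and GNAI2 32.3% and 42.1%. The ratio of GNA11 to GNAQ in TPM was 1.26 to 1.47 in EA.hy926 against 1.51 to 1.69 in HMEC-1, without overlap.

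Every Gβ gene was lower in EA.hy926 with an adjusted p under 0.05, as 43.3% of all genes were. GNB1 (chr1:1785285-1892292), the most abundant by MANE length, had 16318, 14486, 15395, 16397 and 16454 counts in EA.hy926 against 26026, 30538, 33754, 30081 and 28008 in HMEC-1. The groups were far apart, at 437 ± 6.53 and 739 ± 6.85 CPM, with a log2FC of -0.76 (SE 0.022, adjusted p = 2.5e-18, edgeR). GNB2 had a log2FC of -0.32 (SE 0.024), GNB3 of -0.50 (SE 0.087) and GNB4 of -0.99 (SE 0.03). GNB4 stood just under the fold threshold, passed it at -1.01 without HMEC-1 replicate 2 or without HMEC-1 replicate 4, and shares 24.3% of its exonic bases with another annotated gene.

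GNB5 (chr15:52115100-52191392) was the Gβ gene past both thresholds. Its product is the atypical Gβ that pairs with the R7 group of RGS proteins rather than with Gγ. GNB5 had 633, 519, 528, 580 and 567 counts in EA.hy926 against 1174, 1356, 1573, 1340 and 1287 in HMEC-1. All EA.hy926 libraries were below all HMEC-1 libraries, at 15.6 ± 0.871 and 33.5 ± 0.464 CPM, with a log2FC of -1.10 (SE 0.042, adjusted p = 4.0e-16, edgeR).

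The Gγ genes showed a change of balance between GNG11 and GNG12. GNG12 (chr1:67701475-67833467) had 11408, 10614, 10648, 11383 and 11374 counts in EA.hy926 against 20746, 23740, 27119, 23498 and 22473 in HMEC-1, or 307 ± 8.62 and 585 ± 6.01 CPM (log2FC -0.93, SE 0.024, adjusted p = 3.8e-19, edgeR). GNG11 (chr7:93921735-93928610), which encodes a farnesylated Gγ, went the other way with 6316 to 7318 counts in EA.hy926 against 4723 to 5934 in HMEC-1, or 188 ± 7.29 and 129.9 ± 7.71 CPM (log2FC 0.53, SE 0.036, adjusted p = 9.0e-12, edgeR). The ratio of GNG11 to GNG12 in TPM was 0.852 to 0.936 in EA.hy926 against 0.306 to 0.351 in HMEC-1. GNG11 was the only Gγ gene tested that was higher in EA.hy926.

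GNG5 had 2285, 2006, 1994, 2434 and 2162 counts in EA.hy926 against 2850, 3302, 3504, 2945 and 2801 in HMEC-1 (log2FC -0.35, SE 0.038, adjusted p = 2.2e-08, edgeR). GNG5, GNG12 and GNG11 together made nearly all of the Gγ level as counted here. Their shares by MANE length were 36 ± 0.901%, 33.7 ± 1.08% and 30.1 ± 0.509% in EA.hy926 and 34.9 ± 0.869%, 48.9 ± 1.3% and 15.8 ± 0.5% in HMEC-1. By the length of all annotated exons GNG12 led in both lines and GNG5 held 8.56% in EA.hy926 and 8.32% in HMEC-1. GNG7 (6 to 12 counts in EA.hy926, 69 to 96 in HMEC-1, log2FC -2.92, SE 0.20) and GNG4 (3 to 13 and 39 to 57, log2FC -2.34, SE 0.25) were the Gγ genes past both thresholds, at adjusted p of 9.9e-12 and 1.4e-08 in edgeR's test. Both reached the test through their HMEC-1 reads, so their direction is partly set by the filter. GNG2, GNG3, GNG8, GNG10 and GNG13 were not tested, with at most 11 counts in any library. For GNG10, 90.5% of the exonic bases are shared with a readthrough gene that joins it to DNAJC25, and that gene had 0 counts in every library, so how reads of GNG10 were assigned is not known and its level is not read from these counts. The Gγ sums and shares take GNG10 as counted, so they may leave out reads of that gene.

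Because GNG11 and GNG12 differed in direction, the 250 bases before their RefSeq start sites (GRCh38.p14) are given, with each CG dinucleotide in capitals. Both are written 5′ to 3′ on the strand of the gene, from chr7:93921485-93921734 (plus strand) for GNG11 and chr1:67833468-67833717 (minus strand) for GNG12.
GNG11: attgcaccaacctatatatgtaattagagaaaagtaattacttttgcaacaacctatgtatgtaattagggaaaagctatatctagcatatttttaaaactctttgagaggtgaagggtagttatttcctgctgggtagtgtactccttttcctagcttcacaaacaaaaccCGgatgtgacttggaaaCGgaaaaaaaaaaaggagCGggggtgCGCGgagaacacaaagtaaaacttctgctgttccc
GNG12: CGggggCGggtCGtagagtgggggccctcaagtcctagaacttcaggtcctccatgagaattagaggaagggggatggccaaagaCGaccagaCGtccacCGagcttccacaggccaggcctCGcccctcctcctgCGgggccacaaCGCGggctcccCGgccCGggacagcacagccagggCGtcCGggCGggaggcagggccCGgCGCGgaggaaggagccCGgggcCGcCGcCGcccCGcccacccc
The GNG11 window held 5 CG dinucleotides and the GNG12 window 23, against a median of 11 over 35116 RefSeq promoters. A count of CG is a description of the letters and does not measure methylation.

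**Figure D3:**
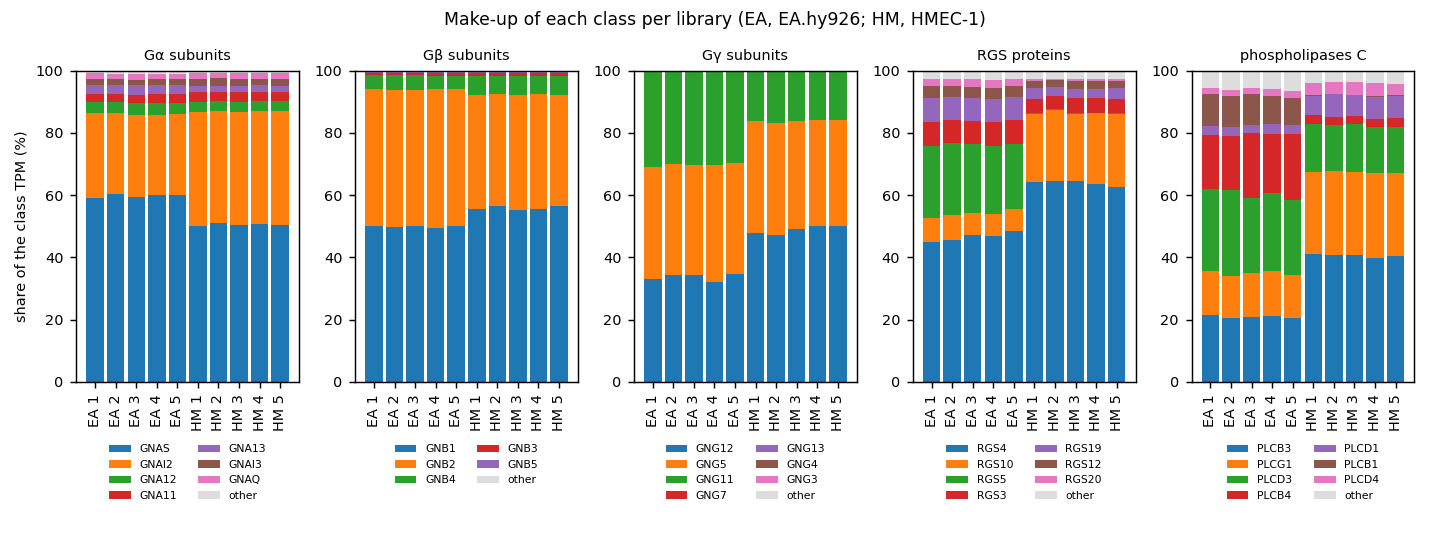
Share of each class's summed TPM (MANE length) by gene in every library, with the 7 most abundant genes of each class in colour and the others in grey. Libraries of a line look alike, and GNG12, RGS4, RGS10, PLCB3 and PLCG1 take larger shares in HMEC-1, while GNG11, RGS5, PLCB4 and PLCB1 take larger shares in EA.hy926.

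RGS4 was the leading RGS gene of both lines, and RGS5, its neighbour on chromosome 1, was high in EA.hy926 and low in HMEC-1. Both encode short RGS proteins of the R4 group that act on Gi and Gq, and RGS5 is widely used as a marker of pericytes. RGS4 (ENSG00000117152, chr1:163068775-163076802) had 16752, 15641, 17031, 17902 and 18092 counts in EA.hy926 against 21468, 26227, 26675, 23735 and 21236 in HMEC-1. The HMEC-1 libraries were all higher, at 594 ± 33.8 against 473 ± 14 CPM (log2FC -0.33, SE 0.033, adjusted p = 7.0e-09, edgeR). RGS5 (ENSG00000143248, chr1:163111121-163321791) had 16421, 15308, 15048, 15826 and 14981 counts in EA.hy926 against 181, 209, 229, 192 and 202 in HMEC-1. Every EA.hy926 library was far above every HMEC-1 library. The levels were 430 ± 23.5 and 5.05 ± 0.221 CPM, with a log2FC of 6.41 (SE 0.047, adjusted p = 4.6e-28, edgeR) that stayed between 6.37 and 6.44 when any 1 library was left out.

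The ratio of RGS4 to RGS5 in TPM was 1.94 to 2.29 in EA.hy926 against 199.8 to 238 in HMEC-1. Among RGS genes, RGS5 held 22.3 ± 1% of the level in EA.hy926 against 0.286 ± 0.018% in HMEC-1, and RGS4 held 46.6 ± 1.35% and 63.9 ± 0.829%. The genes lie 34.3 kb apart on opposite strands. Of the 10 genes tested within 1 Mb of RGS5, 1 was higher past both thresholds and 2 were lower, and of the 12 within 1 Mb of RGS9, 5 were higher and 1 lower. Over all genes 19.1% were higher and 16.4% lower, and so few neighbours cannot be told from those shares. As a pooled list, fibroblast and mural markers went the other way from RGS5. Of a list of 10, 7 were tested and 6 were lower in EA.hy926 past both thresholds. The sum of the list was 1.59 to 2.41 CPM in EA.hy926 and, in HMEC-1, 550.1 to 584 CPM. COL1A2, COL3A1, PDGFRA, DCN and LUM had 3 counts or fewer in every EA.hy926 library, the line with the high RGS5 level. DCN and LUM were as low in every HMEC-1 library, so they do not separate the lines. The mural markers of the list are not given by gene, so the sum does not show them by themselves.

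The windows of 250 bases before the RefSeq starts of the neighbours RGS4 (chr1:163068621-163068870, plus strand) and RGS5 (chr1:163321736-163321985, minus strand) follow, with that of RGS9 (chr17:65137120-65137369, plus strand), the RGS gene with the largest fitted difference. CG dinucleotides are in capitals, and sequences run 5′ to 3′ along each gene. The RefSeq start need not be the start used in these cells, and other annotations place starts of RGS4, RGS5 and RGS9 elsewhere. For RGS4 and RGS5 such a start lies inside the printed window.
RGS4: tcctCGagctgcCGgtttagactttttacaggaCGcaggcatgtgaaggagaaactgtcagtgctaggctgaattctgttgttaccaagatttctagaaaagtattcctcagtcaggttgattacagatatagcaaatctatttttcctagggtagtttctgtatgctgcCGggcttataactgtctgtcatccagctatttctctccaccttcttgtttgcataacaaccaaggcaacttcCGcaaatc
RGS5: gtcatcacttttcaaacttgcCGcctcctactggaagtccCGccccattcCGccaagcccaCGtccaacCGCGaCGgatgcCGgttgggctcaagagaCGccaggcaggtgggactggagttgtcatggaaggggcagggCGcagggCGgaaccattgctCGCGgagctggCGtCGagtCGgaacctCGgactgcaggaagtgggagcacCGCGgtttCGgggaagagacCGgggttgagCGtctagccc
RGS9: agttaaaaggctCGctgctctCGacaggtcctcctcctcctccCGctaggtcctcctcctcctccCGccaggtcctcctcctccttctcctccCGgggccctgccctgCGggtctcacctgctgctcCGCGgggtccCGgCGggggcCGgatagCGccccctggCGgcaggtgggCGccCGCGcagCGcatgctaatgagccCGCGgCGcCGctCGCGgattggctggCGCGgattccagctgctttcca
RGS4 held 5 CG dinucleotides in its window, RGS5 22 and RGS9 25. Measured over all promoters these counts lie at percentiles 36.2, 73.1 and 79.4, so RGS5 and RGS9, the RGS genes that differed most and in opposite directions, have similar counts.

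Promoters were found for 55 of the 67 members. Missing were PLCB1, PLCB4, GNAZ, RGS20 and GNA15 among the higher members past both thresholds, and RGS11 and PLCB2 among the lower. For the promoters found, the median CG count was 26 for the 9 members higher past both thresholds, 25 for the 7 lower, 22 for the 20 tested members that did not pass both and 5 for the 19 not tested. The median was thus lowest for the members with few or no reads, and the medians of the higher and lower members were close. Each of 3 motifs was searched by itself on both strands. TATAAA was present in 10.7% of all windows and in 5.45% of the member windows, all of these among members not tested. GGGCGG was present in 42.6% of all and 56.4% of the member windows, and CCGGAA in 14.5% and 9.09%.

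The R7 group, which needs Gβ5 for its stability and is best known from neurons and photoreceptors, was divided. RGS9 (ENSG00000108370, chr17:65100812-65227703), which ends the light response in rods and also works in the striatum, had 0, 0, 0, 2 and 0 counts in EA.hy926 against 239, 288, 330, 288 and 298 in HMEC-1. A single EA.hy926 library held any read of it, while every HMEC-1 library held at least 239. Pooled by line, the ratio of HMEC-1 to EA.hy926 was 649, with an exact 95% interval of 179 to 5365 that covers counting error only. The fitted log2FC was -8.97 (adjusted p = 2.0e-18, edgeR) and -11.10 without EA.hy926 replicate 4, since a fold against so few reads depends on the prior count. RGS11 had 0 to 3 counts in EA.hy926 against 48 to 91 in HMEC-1 (log2FC -5.00, SE 0.33, adjusted p = 5.1e-12, edgeR), and shares 21.7% of its exonic bases with other genes. Its pooled ratio of HMEC-1 to EA.hy926 was 34.2, with an exact 95% interval of 17.8 to 75.4 that again covers counting error only.

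RGS7, the third R7 gene detected, was the exception. Its counts were 396, 368, 434, 402 and 418 in EA.hy926 against 158, 194, 151, 180 and 153 in HMEC-1. The lines were well separated, with a log2FC of 1.42 (SE 0.085, adjusted p = 1.2e-12, edgeR). RGS6 had at most 3 counts in any library. RGS9BP, which encodes the membrane anchor of RGS9, had 28 to 52 counts in EA.hy926 against 6 to 15 in HMEC-1 (log2FC 2.10, SE 0.25, adjusted p = 1.2e-07, edgeR), opposite in direction to RGS9 itself, with 30.6% of its exonic bases shared with other genes. In HMEC-1 the R7 genes RGS7, RGS9 and RGS11 and their partner GNB5 were therefore all detected, and in EA.hy926 RGS7 and GNB5 were.

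All 3 genes of the RZ group, which prefers Gz and Gi, passed both thresholds, as 35.5% of all genes did. RGS19 (chr20:64073181-64079988) had 1541, 1378, 1436, 1560 and 1516 counts in EA.hy926 against 614, 628, 666, 639 and 602 in HMEC-1 (log2FC 1.39, SE 0.044, adjusted p = 1.2e-17, edgeR). RGS20 had 621, 572, 656, 695 and 617 against 156, 142, 194, 147 and 111 (log2FC 2.23, SE 0.081, adjusted p = 1.7e-16, edgeR). Both were higher in EA.hy926 without overlap, as was GNAZ, the gene of the Gα subunit that the group is named for. RGS17 went the other way, with 7, 12, 17, 8 and 14 counts in EA.hy926 against 93, 86, 118, 93 and 59 in HMEC-1 (log2FC -2.78, SE 0.23, adjusted p = 2.0e-10, edgeR). Together the RZ genes held 9.92 ± 0.138% of the RGS level in EA.hy926 against 3.78 ± 0.259% in HMEC-1.

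In the R12 group, RGS10 (chr10:119499817-119542719), a small RGS protein known from immune cells and platelets, had 865, 835, 797, 825 and 806 counts in EA.hy926 against 2261, 2847, 2731, 2641 and 2444 in HMEC-1. All HMEC-1 libraries were higher, with a log2FC of -1.49 (SE 0.046, adjusted p = 8.5e-18, edgeR), and RGS10 was second among RGS genes in HMEC-1 with 22.4 ± 0.781% of the level against 7.3 ± 0.385% in EA.hy926. RGS12, a large scaffold of the group, had a log2FC of 0.68 (SE 0.033). RGS14 was the single member tested that missed the adjusted p, with 165, 150, 148, 208 and 140 counts in EA.hy926 against 162, 189, 224, 162 and 177 in HMEC-1. The groups overlapped, at 4.48 ± 0.601 and 4.54 ± 0.333 CPM, and the log2FC was -0.02 with an SE of 0.097 (adjusted p = 0.847, edgeR).

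Of the remaining R4 genes, RGS3 was well expressed and the others were low or absent. RGS2, a regulator selective for Gq that lowers vascular tone, had 126, 123, 119, 166 and 142 counts in EA.hy926 against 43, 60, 63, 47 and 47 in HMEC-1. The lines did not overlap (log2FC 1.53, SE 0.12, adjusted p = 9.6e-11, edgeR), but the level was low in both, at 3.73 ± 0.38 and 1.29 ± 0.127 CPM. RGS3 was the R4 gene after RGS4 and RGS5 in EA.hy926, at 106 ± 2.46 CPM against 58.5 ± 1.29 CPM in HMEC-1 (log2FC 0.86, SE 0.027). RGS13 had 8 to 14 counts in EA.hy926 against 0 in HMEC-1, which is at least 3.58-fold higher against 3 counts per library, and was not tested. RGS1, RGS8 and RGS21 had 0 counts in every library, and RGS16, RGS18 and RGS22, which belongs to none of these groups, had 2 or fewer, although RGS1, RGS2, RGS13, RGS18 and RGS21 stand in a row on chromosome 1 with gaps of 56.1 to 208 kb. Of this cluster RGS2 alone had enough reads for a test.

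**Figure D4:**
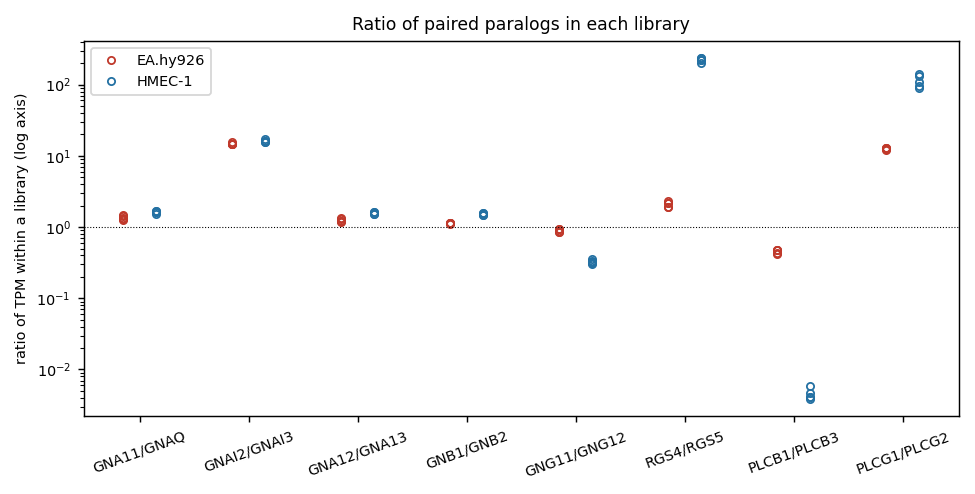
Ratio of TPM of paired paralogs within each library, on a log axis with a dotted line at 1, by line. RGS4 to RGS5 lies at 1.94 to 2.29 in EA.hy926 and at 199.8 to 238 in HMEC-1, and PLCB1 to PLCB3 at 0.419 to 0.482 and 0.00381 to 0.00589, while the pairs of G protein subunits differ by less.

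The PLCβ isozymes, which Gαq activates, showed the widest differences within PLC. PLCB1 (ENSG00000182621, chr20:8077251-8968360) had 3658, 3032, 3402, 3270 and 3165 counts in EA.hy926 against 38, 35, 43, 55 and 36 in HMEC-1. Each EA.hy926 library had at least 3032 reads and no HMEC-1 library more than 55. The levels were 91.5 ± 6.43 and 1.03 ± 0.195 CPM, with a log2FC of 6.47 (SE 0.077, adjusted p = 7.4e-25, edgeR) that ranged from 6.39 to 6.57 when any 1 library was left out. PLCB4 (ENSG00000101333, chr20:9067825-9504593), known from retina and cerebellum, had 4987, 4288, 5764, 5566 and 6004 counts in EA.hy926 against 418, 464, 506, 494 and 482 in HMEC-1. PLCB4 varied more among EA.hy926 libraries than PLCB1 did, but no library came near the other line, at 147 ± 15.6 and 11.8 ± 0.641 CPM (log2FC 3.64, SE 0.064, adjusted p = 5.1e-22, edgeR).

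PLCB3 (chr11:64251530-64269150), which Gβγ can also activate, was the isozyme of this group that differed least. It had 4546, 3719, 4293, 4618 and 4283 counts in EA.hy926 against 4775, 5437, 6161, 5519 and 5138 in HMEC-1. The difference was small but without overlap, at 119 ± 4.71 and 135 ± 1.22 CPM (log2FC -0.18, SE 0.028, adjusted p = 3.4e-06, edgeR). PLCB2, the isozyme of blood cells and taste cells, had 29, 27, 19, 33 and 24 counts in EA.hy926 against 116, 140, 167, 169 and 156 in HMEC-1 (log2FC -2.34, SE 0.14, adjusted p = 1.1e-12, edgeR). Within the PLC genes, PLCB3 held 20.9 ± 0.481% of the level in EA.hy926 against 40.5 ± 0.45% in HMEC-1, PLCB4 19.1 ± 1.79% and 2.62 ± 0.122%, and PLCB1 9.54 ± 0.598% and 0.184 ± 0.0319%. The 4 PLCβ genes together held 49.7 ± 1.48% in EA.hy926 by MANE length and 44.3 ± 0.354% in HMEC-1, an order that turned with the length of all annotated exons (39.9% and 46.1%).

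PLCB1 and PLCB4 are neighbours on chromosome 20, 99.5 kb apart on the same strand, and this pair was picked after its values were seen. Apart from each other, the gene tested within 1 Mb of PLCB1 was TMX4 (log2FC 1.99, SE 0.024), and those within 1 Mb of PLCB4 were ANKEF1 (6.65, SE 0.29), SLX4IP (1.49, SE 0.056) and MKKS (0.60, SE 0.035).

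PLCD3 (chr17:45108959-45133354), a PLCδ isozyme activated by Ca2+ itself, was the leading PLC gene of EA.hy926 by MANE length. It had 8140, 7328, 7223, 8068 and 7428 counts in EA.hy926 against 2629, 2885, 3441, 3008 and 2749 in HMEC-1. Every EA.hy926 library was above every HMEC-1 library, at 211 ± 9.08 and 73.2 ± 1.83 CPM (log2FC 1.53, SE 0.031, adjusted p = 5.0e-21, edgeR). PLCD1 was lower in EA.hy926 (log2FC -0.44, SE 0.057). PLCD4 overlapped between the lines, at 251 to 349 and 333 to 459 counts, with a log2FC of -0.17 (SE 0.071, adjusted p = 0.0269, edgeR) and 34% of its exonic bases shared with ZNF142.

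The PLCγ isozymes, which are activated by tyrosine kinases rather than by G proteins, differed from each other. PLCG1, the isozyme downstream of growth factor receptors, had 134 ± 4.58 CPM in EA.hy926 and, in HMEC-1, 151 ± 3.09 CPM (log2FC -0.17, SE 0.027, adjusted p = 6.6e-06, edgeR). PLCG2, the isozyme of B cells and myeloid cells, had 487, 420, 463, 490 and 495 counts in EA.hy926 against 72, 69, 63, 55 and 73 in HMEC-1. The separation was complete, with a log2FC of 2.97 (SE 0.092, adjusted p = 8.4e-18, edgeR), and 24.3% of its exonic bases are shared with other annotated genes. Of 10 leukocyte markers 3 were tested, 1 was higher and 1 lower past both thresholds, and the sum was 48.8 to 56.9 CPM in EA.hy926 and, in HMEC-1, 41.6 to 43.7 CPM. LYZ, the lysozyme gene of myeloid cells, was higher in EA.hy926 as PLCG2 was, with 338 to 401 counts against 0 to 1 and 34.7% of its exonic bases shared with other genes, CD14 was lower (log2FC -3.50), and CD3E, MS4A1, ITGAM and SPI1 had 3 counts or fewer in every library. Their part in the PLCG2 difference was not tested.

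Of the other PLC genes, PLCL2, which encodes a PLC-like protein without catalytic activity, had 628, 613, 592, 643 and 756 counts in EA.hy926 against 136, 154, 154, 139 and 149 in HMEC-1 (log2FC 2.29, SE 0.073, adjusted p = 1.4e-17, edgeR). PLCH2, a PLCη isozyme, had 105, 102, 95, 138 and 120 against 43, 42, 39, 43 and 47 (log2FC 1.53, SE 0.14, adjusted p = 9.0e-10, edgeR). Neither gene overlapped between the lines. PLCE1, which Ras activates, had a log2FC of 0.38 (SE 0.062). PLCZ1, the sperm isozyme, had 9 to 23 counts in EA.hy926 against 0 in HMEC-1, at least 4.9-fold higher against 3 counts per library. PLCL1 (0 to 2 and 3 to 10 counts) and PLCH1 (0 to 5 and 0) were not tested.

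Around these members, 96 further genes of the pathway were listed, of which 74 were tested. An adjusted p under 0.05 was found for 67 of them, with 33 higher and 34 lower. Both thresholds were passed by 25 (33.8%), 14 of them higher and 11 lower, against 35.5% of all genes. All 3 IP3 receptors, the Ca2+ channels that PLC signaling opens, were higher in EA.hy926 with an adjusted p under 0.05, as 42.6% of all genes were. ITPR1 passed both thresholds with 1464 to 1729 counts in EA.hy926 against 216 to 255 in HMEC-1 (log2FC 2.90, SE 0.044, adjusted p = 3.7e-23, edgeR), whereas ITPR3 (0.63, SE 0.034) and ITPR2 (0.20, SE 0.042) moved less.

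Upstream of PLC, 3 of 11 Gq-coupled receptors for the agonists used were tested. All 3 were higher in EA.hy926 with an adjusted p under 0.05, as 42.6% of all genes were, and for 2 the values of the lines did not overlap. The nucleotide receptor P2RY2 had the most reads of them, with 632 to 706 counts in EA.hy926 against 331 to 410 in HMEC-1 (log2FC 0.99, SE 0.051, adjusted p = 6.5e-14, edgeR). P2RY6 passed both thresholds at 9 to 17 and 2 to 9 counts (log2FC 1.54, SE 0.37, adjusted p = 5.6e-04, edgeR), and P2RY11 had a log2FC of 0.31 (SE 0.11). P2RY6 reached the test through its EA.hy926 reads, while AGTR1, seen only in HMEC-1, was too low for a test. That all receptors tested were higher is therefore partly set by the filter. P2RY2 shares 37.5% and P2RY11 61.3% of the exonic bases with overlapping genes. The bradykinin receptor BDKRB1 had 0 counts in every library and BDKRB2 at most 1, and the angiotensin receptor AGTR1 had 0 in EA.hy926 against 1 to 9 in HMEC-1. BDKRB1 and BDKRB2 in both lines, and AGTR1 in EA.hy926, were thus not detectable at this depth, which is not the same as absent from the cells.

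The counts of the following lists stand against 35.5% of all genes past both thresholds, 19.1% higher and 16.4% lower. The adenylyl cyclases, effectors of Gs and Gi, differed by isoform. Of 7 tested, 5 (71.4%) passed both thresholds, 2 higher and 3 lower in EA.hy926. ADCY2, an isoform that Gβγ stimulates, had 440 to 488 counts in EA.hy926 against 0 in HMEC-1, at least 151-fold higher against 3 counts per library. ADCY7 had a log2FC of -3.85 (SE 0.097, 41.8% of its exonic bases shared with other genes) and ADCY1 of -3.62 (SE 0.41). Of the receptor kinases and arrestins, 3 of 7 (42.9%) passed both thresholds, led by GRK3, a kinase recruited by Gβγ, with 138 to 177 counts in EA.hy926 against 1740 to 2152 in HMEC-1 (log2FC -3.44, SE 0.05, adjusted p = 2.0e-23, edgeR).

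Downstream of diacylglycerol, 10 kinases and exchange factors were tested and 2 (20%) passed both thresholds, both higher in EA.hy926, a share close to the 19.1% over all genes. PRKD1, protein kinase D, had a log2FC of 4.05 (SE 0.087), and RASGRP3, an exchange factor for Ras, of 5.08 (SE 0.15), with 241 to 315 counts in EA.hy926 against 7 to 11 in HMEC-1. The diacylglycerol kinases, which remove that signal, were mixed, with DGKI (1.72) and DGKQ (1.16) higher and DGKD (-1.27) and DGKH (-1.07) lower of 7 tested. Of 14 genes of PIP2 supply and inositol phosphate turnover, 3 (21.4%) passed both thresholds, all higher, which is also close to that share, and these were ITPKA (1.64), ITPKC (1.20) and IMPA2 (1.04). Of 9 Gα chaperones and GoLoco proteins RAP1GAP (-2.27, SE 0.37) and GPSM2 (-1.32, SE 0.034) were lower. Among 7 other RGS-domain proteins and RGS partners, AXIN2 (-2.12, SE 0.11) was lower and RGS9BP, given above, was higher.

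**Figure D5:**
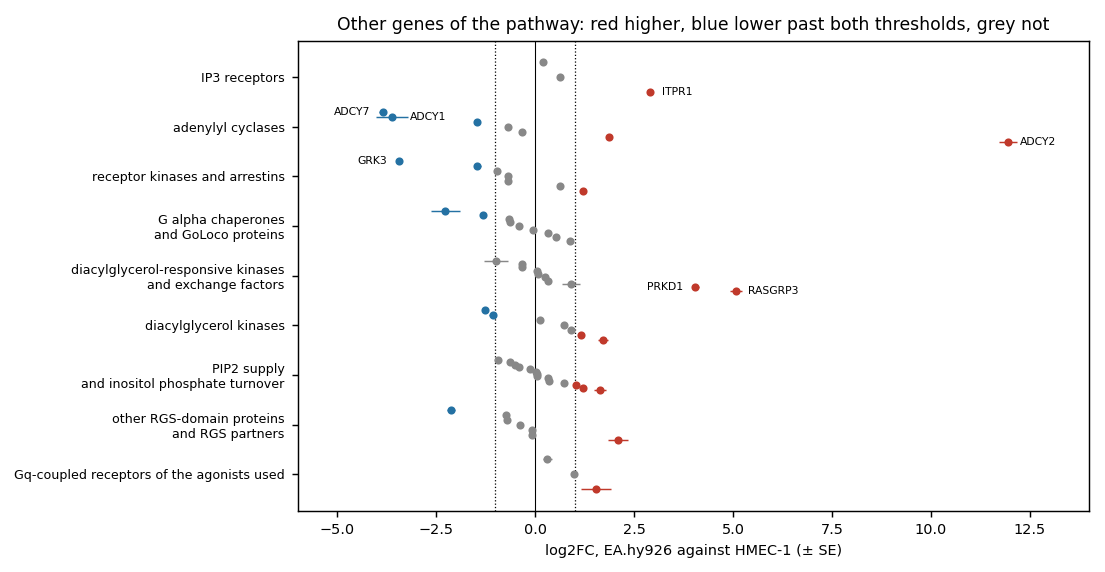
Log2FC of EA.hy926 against HMEC-1 with its standard error for pathway genes tested outside the members, by list, with dotted lines at the fold threshold of 1. All 3 IP3 receptors and all 3 Gq-coupled receptors tested lie above 0, and the fitted point of ADCY2 stands on 0 counts in HMEC-1, so that its place depends on the prior count.

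All 20 endothelial markers on the list had enough reads for a test. Of these, 12 were higher and 3 lower in EA.hy926 past both thresholds, with sums of 6850.4 to 7645 CPM in EA.hy926 and, in HMEC-1, 2321 to 2389 CPM, and EMCN had at most 2 counts in EA.hy926. Of 15 epithelial markers, looked at because of the A549 parent, 9 were tested, 3 were higher and 3 lower, and the sums were 1277 to 1390.4 CPM and 429 to 492 CPM, while CDH1, ESRP1, GRHL2, OVOL1, SFTPB and NKX2-1 had 3 counts or fewer in every library. These lists move with the same contrast as the members, and their part in the member differences was not tested.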

How the data were processed

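RNA-seq of 5 libraries of EA.hy926 and 5 of HMEC-1 was analysed, and the line and replicate number of each library came from the sample labels. The study describes them as biological replicates. The values are raw counts per gene as the authors deposited them, not normalized and not filtered. Reads had been sequenced on an Illumina instrument from oligo(dT)-selected mRNA and aligned to GRCh38 with HISAT2. For the counting, the study's methods name HTSeq and the submitters' processing notes featureCounts, beside fastp and DESeq2, and the tool versions, the annotation release and the strand setting are not given in the sources used here. Reads of overlapping genes therefore cannot be told apart by strand, and shares of exonic bases that overlap other genes are given where they are large. All 10 columns of the table belong to these samples, and 0 to another series.

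Gene symbols, coordinates and lengths came from GENCODE 44 (GRCh38), which matched 56434 of 60448 identifiers (93.4%). After filterByExpr with a minimum count of 10 and a minimum total of 15, 16310 genes were left. They were scaled by TMM (factors 0.942 to 0.964 in EA.hy926 against 1.04 to 1.05 in HMEC-1) and tested with edgeR's quasi-likelihood F test (edgeR 4.0.16, R 4.3.3) without covariates, and p-values were adjusted by Benjamini-Hochberg over all genes tested. The SE was the log2FC divided by the square root of F. With 3 counts as the floor, a library's limit was 0.0651 to 0.0904 CPM, and intervals and floors cover counting error only. The members and all lists were chosen with earlier results of these data known, and so were the subfamily names, the PLCB1 and PLCB4 pair and the printed promoters. The use of MANE lengths was decided after the data were seen.

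Counts per library were given for the most abundant member of each class in each line by TPM, for members past both thresholds with 100 or more counts in 1 library, and for tested members with an adjusted p of 0.05 or more. Others were given by range, and of each pathway list at most the 3 largest past both thresholds. IP3 and Gq-coupled receptors, genes near PLCB1 and PLCB4, the leukocyte markers named, and the remaining diacylglycerol kinases were named after their values were seen. A list of the pathway is counted in its total but is not reported here. Promoter windows came from RefSeq (GRCh38.p14). Libraries of a line differed by more than sampling noise, with a chi-square per gene of 3.08 to 7.63, so none was counted as a duplicate. Alternatives were other normalizations, filters, tools (limma 3.58.1 voom, DESeq2 1.42.0), a replicate block and leaving out each library. On simulated counts, edgeR called 194 of 194 tested genes changed 3-fold and 9 others among 16062. Few genes were changed in that simulation, equally in both directions and at a single dispersion. In the real counts 85.8% of genes had an adjusted p under 0.05, so the simulation does not measure error rates for them.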

Additional observations from a re-analysis of the deposited data

Results flagged for a closer look

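Of 48 groups of 5 libraries (24 members given by library, in each line), 3 held a library that stood apart from the other libraries by Dixon's criterion, for which the gap to the nearest library over the range of the group must be above 0.71. Chance alone gives such a library in about 1 in 20 groups. GNB5 had 17.1 CPM in EA.hy926 replicate 1 against 15 to 15.6 CPM in the other libraries of the line, with a gap of 0.714 of the range, and that value is the one nearest to HMEC-1. RGS14 had 3.97 CPM in HMEC-1 replicate 4 against 4.62 to 4.86 CPM, with a gap of 0.731. RGS9 had 0.052 CPM in EA.hy926 replicate 4, which is 2 reads, and 0 in the other libraries of that line. No cause was tested for any of these values.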

How the results depend on the processing

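Of the 47 log2FC of members, recomputed under 7 alternatives other than leaving out a library, 316 values kept direction and side of the thresholds, 4 newly passed them and 1 reversed. The reversal was GNA13, at -0.02 with library totals. With library totals GNAI2 (-1.02), GNB4 (-1.12) and GNG12 (-1.07) passed the fold threshold, 2 Gβ genes passed both, and the split of members was 14 higher and 12 lower, and of all genes 2809 higher and 3085 lower. Without a filter, 9312 of 33071 genes, 30 of 63 members and 2 Gβ genes passed both thresholds. With at least 10 counts in every library, 3255 of 13107 genes and 15 of 39 members (3 of them lower) passed. Among these were 1 of 9 Gα genes and 0 of 3 Gγ genes, since that filter removes members that are near 0 in a line. Leaving out each library in turn gave 23 to 25 members past both thresholds, 14 to 15 higher and 9 to 10 lower, 4 Gα, 1 to 2 Gβ, 2 Gγ, 9 RGS and 7 to 8 PLC genes, 25 to 29 pathway genes and 5945 to 6000 of all genes. The Gβ count reached 2 without HMEC-1 replicate 2 or 4, through GNB4. The numbers 1 to 5 are shared by the lines, but same-numbered libraries deviated together with correlations of -0.0228 to 0.0389, which does not pair them, and a replicate block gave 23 members (14 higher, 9 lower) and 5786 of all genes, so it changed no count of members. Shares within a class depend on the length used, and with the length of all annotated exons GNAI2, GNB2 and GNG12 led their classes in both lines.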
